A study of Mus musculus with 30 samples.

Results

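*Fads1*, *Fads2*, *Elovl1*, *Elovl2*, *Elovl3*, *Elovl5* and *Scd2*, which lengthen and desaturate fatty acids, were followed in the livers of mice on 5 diets. These 7 genes were taken by symbol, and all were found among the 14173 genes of the deposited count tables. No rule on their levels was used in the choice. The set was drawn up with earlier results from these livers known, so it may not be independent of them. The 30 livers came from male C57BL6/J mice aged 6 months, 6 mice per diet, each giving 1 library of RNA tags (QuantSeq, in which a read marks the 3′ end of an mRNA). Levels are given as normalized counts, the deposited values in which the authors had divided each library's counts by its DESeq2 size factor. They were not scaled to length, so levels are compared within a gene only.

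The diets differed in protein source, protein amount and sulfur amino acids (SAA, methionine and cysteine). Cas-20% held 20% casein with 0.57 g methionine and 0.41 g cysteine per 100 g, and Cas-5% held 5% casein with 0.15 g and 0.1 g. Soy-20% held 20% soy protein with 0.22 g of each, Soy-20% + SAA held the same soy protein brought to 0.58 g methionine and 0.41 g cysteine, and Soy-10% held 11.5% soy by its label with 0.13 g of each. Mice ate these diets for 12 weeks and were fasted for 4 h before the livers were taken. Before that, the casein mice had all eaten Cas-20% and the soy mice had all eaten Soy-20% for a run-in period, which the controls of each source shared. Cas-5% and Soy-10% differ in protein amount as well as in source, and no diet paired 5% casein with added methionine. Both casein diets carried added cystine, the oxidized form of cysteine.

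Mammals take linoleic and α-linolenic acid from food and convert them to arachidonic acid and docosahexaenoic acid by alternating desaturation and elongation in the endoplasmic reticulum, with the liver as a main site. FADS2 carries out the first desaturation and FADS1 a later one. ELOVL5 lengthens the early polyunsaturated intermediates, and ELOVL2 lengthens the later ones on the way to docosahexaenoic acid. ELOVL1 and ELOVL3 lengthen mainly saturated and monounsaturated chains, and SCD2 is a stearoyl-CoA desaturase that makes monounsaturated fatty acids and is secondary to SCD1 in adult mouse liver. Transcription of many of these genes in liver is driven by SREBP-1c, LXR and PPARα and is dampened by dietary polyunsaturated fat.

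On GRCm38, 4 of the 7 genes lie on chromosome 19. *Fads2* (ENSMUSG00000024665) runs from 10062765 to 10101746 on the minus strand and *Fads1* (ENSMUSG00000010663) from 10182888 to 10196877 on the plus strand, so that the pair is divergent, with 81141 bases between them. *Scd2* (ENSMUSG00000025203) lies at 44293674 to 44306864, 87590 bases from *Scd1*, and *Elovl3* (ENSMUSG00000038754) at 46131897 to 46135694. *Elovl5* (ENSMUSG00000032349) is on chromosome 9 at 77917364 to 77984519, *Elovl2* (ENSMUSG00000021364) on chromosome 13 at 41182381 to 41220405 and *Elovl1* (ENSMUSG00000006390) on chromosome 4 at 118428093 to 118432953.

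RefSeq promoters (GRCm38.p6, 250 bases before to 50 after the start of transcription) were at hand for 4 of the 7 genes, and for *Elovl1* and *Elovl2* the first of 2 listed starts is used. Those of *Fads2*, *Elovl5* and *Elovl2* are shown because these genes were lower together on both restricted diets, and that of *Elovl1* because it moved less. Capitals mark matches, on either strand, to any of 6 motifs. The sterol response element, bound by SREBP, was searched as TCACNCCAC, where N is any base. The box bound by NF-Y was searched as CCAAT, and the E-box, bound by clock and sugar-sensing factors among others, as CACGTG. The GC box, bound by Sp1, was searched as GGGCGG. The TATA box was searched as TATAAA, and the core site of many nuclear receptors as AGGTCA. All are written 5′ to 3′ along the gene's own strand.
*Fads2*, chr19:10101454-10101753, minus strand: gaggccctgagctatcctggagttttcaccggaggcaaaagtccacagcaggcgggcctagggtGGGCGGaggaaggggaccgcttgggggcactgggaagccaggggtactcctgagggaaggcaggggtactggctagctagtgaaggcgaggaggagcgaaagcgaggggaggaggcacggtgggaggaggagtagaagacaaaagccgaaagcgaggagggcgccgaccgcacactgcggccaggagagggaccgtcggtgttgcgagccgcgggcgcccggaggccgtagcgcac
*Elovl5*, chr9:77917115-77917414, plus strand: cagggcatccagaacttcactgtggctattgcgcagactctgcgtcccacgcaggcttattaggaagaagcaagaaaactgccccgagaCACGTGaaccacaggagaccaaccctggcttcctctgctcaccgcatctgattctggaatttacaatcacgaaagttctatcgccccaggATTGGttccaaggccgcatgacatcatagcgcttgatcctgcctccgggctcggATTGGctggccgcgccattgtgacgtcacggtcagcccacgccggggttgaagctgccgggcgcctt
*Elovl2*, chr13:41220354-41220653, minus strand: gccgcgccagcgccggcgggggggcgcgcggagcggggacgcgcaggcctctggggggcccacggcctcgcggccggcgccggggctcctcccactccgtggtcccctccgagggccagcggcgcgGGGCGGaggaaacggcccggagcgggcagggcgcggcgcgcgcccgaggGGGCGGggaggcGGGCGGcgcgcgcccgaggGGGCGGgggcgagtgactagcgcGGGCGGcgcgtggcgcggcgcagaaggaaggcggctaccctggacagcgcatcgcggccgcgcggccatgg
*Elovl1*, chr4:118427843-118428142, plus strand: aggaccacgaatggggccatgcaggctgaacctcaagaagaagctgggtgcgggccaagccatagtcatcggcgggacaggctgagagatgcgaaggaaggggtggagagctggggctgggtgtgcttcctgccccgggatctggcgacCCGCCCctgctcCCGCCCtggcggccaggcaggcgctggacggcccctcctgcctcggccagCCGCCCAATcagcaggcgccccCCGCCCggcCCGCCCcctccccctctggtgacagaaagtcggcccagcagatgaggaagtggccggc
None of these 4 windows held the sterol response element as spelled, which 1.24% of 32851 RefSeq mouse promoters of 300 bases hold. *Elovl5* had 2 CCAAT boxes and *Elovl1* had 1, a motif found in 37.4% of promoters, and the E-box of *Elovl5* is found in 7.15%. *Elovl2* and *Elovl1* had 5 GC boxes each and *Fads2* had 1, with at least 1 in 35.7% of promoters. One GC box of *Elovl1* overlaps its CCAAT box. The TATA box and the receptor site, found in 13.6% and 16.3% of promoters, were in none of the 4. A match is only a match of letters, and its absence applies to this window alone.

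Libraries held 7694015 to 14565542 counts, with a median of 10803734.5. The summed level of 8 hepatocyte markers (albumin among them) was 62185 to 91975 CPM (counts scaled to the library total), against 143 to 532 for the lists of Kupffer, stellate and sinusoidal endothelial markers. Libraries 3 to 6 of Soy-20% + SAA stood apart from the other 26. In them, the level of a gene rose with the GC share of its last 200 transcript bases by 0.06 to 0.19 on the log2 scale per 10 percentage points, against −0.06 to 0.02 in the rest. Results of this diet that turn on these 4 libraries are therefore given with and without them. One Soy-10% liver, replicate 4, carried 678 CPM of pancreatic acinar transcripts, against 16.9 to 55.7 in the other 29 livers.

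Across all 5 diets, *Fads1*, *Fads2*, *Elovl1*, *Elovl2* and *Elovl5* differed and *Elovl3* and *Scd2* did not pass the test (edgeR quasi-likelihood F test, 5 of 7 genes at an adjusted p of 0.05 or less, where 43.4% of all genes tested passed). The edgeR adjusted p was 1.0e-09 for *Fads2*, 2.0e-08 for *Fads1*, 4.3e-08 for *Elovl2*, 8.1e-05 for *Elovl5* and 0.0035 for *Elovl1*, against 0.25 for *Elovl3* and 0.10 for *Scd2*. Without Soy-20% + SAA libraries 3 to 6, or with the GC trend of each library in the model, *Elovl1* was just above the threshold, with adjusted p of 0.050 and 0.056.

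*Fads2* had its highest mean on Soy-20% + SAA (281 ± 99.1 normalized counts, SD, n = 6), followed by Cas-20% (247 ± 41.6), Soy-20% (131 ± 26.6), Soy-10% (108 ± 17.3) and Cas-5% (82.3 ± 9.26). *Fads1* kept the same order, at 5712 ± 1479, 5601 ± 343, 3669 ± 723, 3093 ± 186 and 2926 ± 208. In both genes the only neighbours in this order that differed beyond their spread were Cas-20% and Soy-20%, with no overlap between livers. *Elovl5* also followed this order, from 14421 ± 5041 and 14059 ± 2365 through 11558 ± 2834 and 8985 ± 2010 down to 6878 ± 909, but no pair of neighbours passed the test. For *Elovl2* the casein control came first (7844 ± 1254), then Soy-20% + SAA (7283 ± 1028), Soy-20% (5540 ± 963), Soy-10% (4615 ± 297) and Cas-5% (3899 ± 538), and again no neighbours passed. *Elovl1* ranged from 374 ± 60.6 on Soy-20% + SAA to 271 ± 25.8 on Cas-5% with small steps between. The highest place of Soy-20% + SAA turns on its libraries that stood apart. Its other livers, 1 and 2, held 221 and 173 for *Fads2*, 5154 and 4056 for *Fads1* and 321 and 306 for *Elovl1*. All of these were below the Cas-20% means (247, 5601 and 345). The *Elovl1* values lay on either side of the Soy-20% mean (315). For *Elovl5* these livers held 16936 and 10301, on either side of the Cas-20% mean (14059).

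*Elovl3* and *Scd2* followed other orders. *Elovl3* was highest on Soy-20% (3351 ± 1063) and lowest on Soy-20% + SAA (2157 ± 769), with a coefficient of variation of 43.3% between the Cas-20% livers alone. The lowest place turns on libraries 3 to 6, of which livers 5 and 6 held 1084 and 1349. Livers 1 and 2 of Soy-20% + SAA held 2494 and 2902, on either side of the Cas-5% mean (2688). *Scd2* had few counts, from 42.3 ± 36.0 on Cas-20% to 22.2 ± 6.93 on Soy-20% + SAA. Its Cas-20% mean rested on replicate 2 (112), as no other Cas-20% liver exceeded 49.1.

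**Figure D1:**
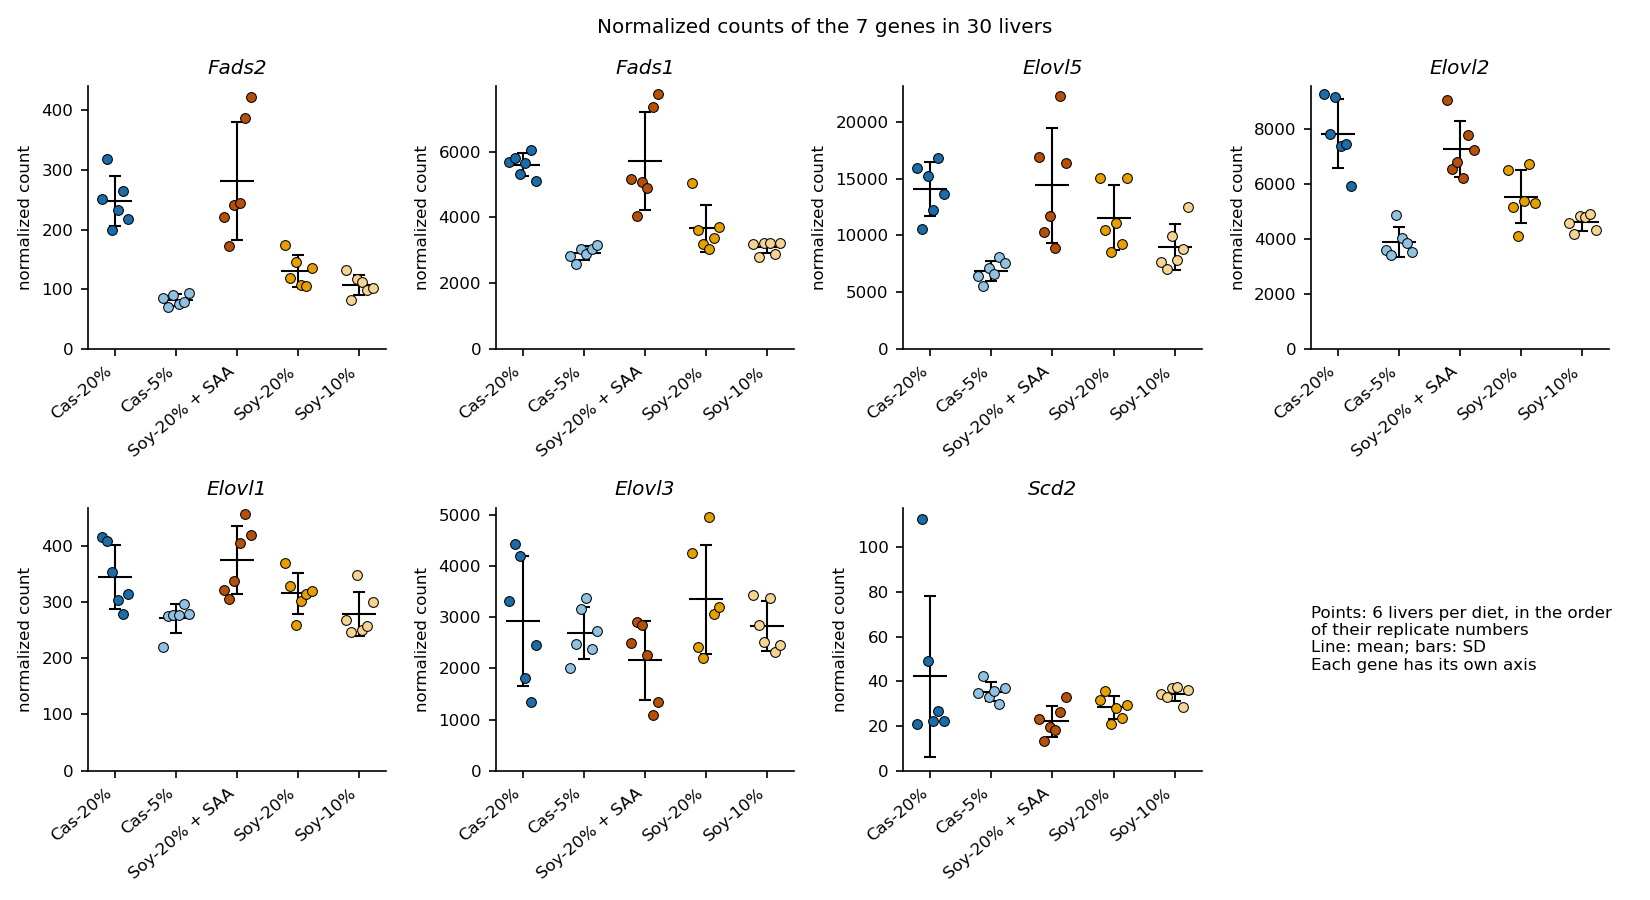
Normalized counts (vertical axes, each gene on its own linear scale from 0) of the 7 genes by diet. Points are the 6 livers of a diet, the line is the mean and the bars are 1 SD. For *Fads2*, *Fads1*, *Elovl5* and *Elovl2* every Cas-5% liver lies below every Cas-20% liver, while *Elovl3* and *Scd2* overlap.

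The first comparison asked what casein restriction does to these transcripts. All 4 genes of the polyunsaturated route were lower on Cas-5%, *Fads2* the most, and *Elovl1* fell less. *Fads2* ran from 69.9 to 94.2 with a median of 82.2 on Cas-5%, and from 199 to 318 with a median of 242 on Cas-20%. It fell by 66.3%, or −1.57 ± 0.12 on the log2 scale (estimate ± standard error, as in what follows, edgeR adjusted p = 8.3e-08). *Fads1* ran from 2585 to 3163 (median 2968) against 5109 to 6058 (median 5667), a log2 change of −0.92 ± 0.07 at an edgeR adjusted p of 9.0e-08. Neither desaturase had a single restricted liver within the range of the controls.

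Both polyunsaturated elongases were lower as well. *Elovl5* ran from 5516 to 8064 (median 6863) on Cas-5% against 10564 to 16771 (median 14451) on Cas-20%, a log2 change of −1.02 ± 0.12 at an edgeR adjusted p of 7.2e-06. *Elovl2* ran from 3435 to 4898 (median 3741) against 5932 to 9278 (median 7642), a log2 change of −0.99 ± 0.11 at an edgeR adjusted p of 6.4e-06. These 2 genes did not overlap between diets either. *Elovl1* ran from 221 to 297 (median 277) against 278 to 415 (median 333), with 4 restricted livers below all controls, and its log2 change was −0.33 ± 0.10 (edgeR adjusted p = 0.025). The *Elovl1* call was lost with the GC trend in the model (−0.23, edgeR adjusted p = 0.11) and without Cas-20% liver 1 or 2 or Cas-5% liver 1 (adjusted p of 0.052 to 0.057).

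*Elovl3* and *Scd2* did not pass. *Elovl3* ran from 2010 to 3376 on Cas-5% and from 1337 to 4431 on Cas-20%, which gave a log2 change of −0.11 with a 95% confidence interval of −0.60 to 0.39. *Scd2* ran from 29.7 to 42.2 against a range of up to 112 with a median of 24.5, a log2 change of −0.26 (interval −1.02 to 0.51) that became 0.32 without the Cas-20% liver of 112. In all, 5 of 7 genes were lower and 0 were higher, where 13.3% of all genes tested were lower and 24.9% differed. Of the 7, 4 lay below all controls with no overlap, as did 7.73% of all genes. The median log2 change was −0.92 over the 7 genes and 0.02 over all genes tested.

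Marker lists moved with this comparison too. The summed level of 6 stellate cell and fibroblast markers was 390 to 532 CPM on Cas-5% and 271 to 385 on Cas-20%, and that of 6 sinusoidal endothelial markers was 352 to 399 against 272 to 312. The 8 hepatocyte markers summed to 74271 to 91975 against 62185 to 69465. The part of these shifts in the result was not tested. In whole liver RNA, fewer cells that express a gene and less RNA of it per cell cannot be told apart.

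For soy restriction the main control was Soy-20% + SAA, which matches Cas-20% in SAA. The same 5 genes were lower on Soy-10%, and *Scd2* was higher. *Fads2* ran from 81.5 to 132 (median 108) on Soy-10% against 173 to 423 (median 243) on the control, a log2 change of −1.40 ± 0.20 at an edgeR adjusted p of 0.00088. *Fads1* ran from 2809 to 3222 (median 3206) against 4056 to 7732 (median 5116), a log2 change of −0.89 ± 0.14 at an edgeR adjusted p of 0.0012. *Elovl2* ran from 4192 to 4908 (median 4707) against 6243 to 9064 (median 7026), a log2 change of −0.66 ± 0.09 at an edgeR adjusted p of 0.00053. In these 3 genes all Soy-10% livers lay below all controls, as they did in 3.31% of all genes.

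The other calls were weaker. *Elovl5* ran from 7061 to 12515 (median 8332) on Soy-10% and from 8892 to 22298 (median 14050) on the control, with a log2 change of −0.69 ± 0.20 at an edgeR adjusted p of 0.034. *Elovl1* ran from 247 to 348 (median 262) against 306 to 456 (median 371), with a log2 change of −0.43 ± 0.12 at an edgeR adjusted p of 0.022. *Scd2* ran from 28.5 to 37.5 (median 35.3) against 13.2 to 33.2 (median 21.1), a log2 change of 0.61 ± 0.19 at an edgeR adjusted p of 0.039. The diets overlapped in all 3, and *Elovl3* (log2 change 0.39, SE 0.21, edgeR adjusted p = 0.21) did not pass. Of the 7 genes, 6 were called, 5 lower and 1 higher, where 17.0% of all genes differed, 8.47% lower and 8.51% higher. The median log2 change was −0.66 over the 7 genes and −0.01 over all genes tested. Cholangiocyte markers, 5 of 5 in the table, summed to 25.2 to 33.6 CPM on Soy-10% and 31.0 to 48.0 on the control, and their part in these results was not tested.

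These values rest in part on libraries 3 to 6 of the control. Livers 5 and 6 of Soy-20% + SAA held the highest *Fads1* (7360 and 7732) and *Fads2* (386 and 423) of all 30. Without libraries 3 to 6, *Fads1* (−0.58, edgeR adjusted p = 0.0065), *Fads2* (−0.89, 0.010) and *Elovl2* (−0.77, 0.0028) were still lower, while *Elovl1* (−0.18, 0.52), *Elovl5* (−0.61, 0.14) and *Scd2* (0.90, 0.088) were not called. That left 3 of 7 genes, where 2.54% of all genes were called. With the GC trend in the model, *Elovl1* (−0.17, edgeR adjusted p = 0.45) and *Elovl5* (−0.56, 0.25) lost their calls and *Scd2* (0.97, 0.035) kept it.

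Single livers also decided these weaker calls. *Elovl5* lost its call without Soy-20% + SAA liver 5 or 6 or any one of Soy-10% livers 1 to 5, with edgeR adjusted p of 0.052 to 0.078. *Elovl1* lost it without Soy-20% + SAA liver 5 or 6 or Soy-10% liver 2 or 5 (0.051 to 0.054), and *Scd2* without Soy-20% + SAA liver 3, 4 or 5 or Soy-10% liver 1, 2, 3, 4 or 6 (0.055 to 0.080). Without Soy-20% + SAA liver 5, 3 of the 7 genes were called. *Fads1*, *Fads2* and *Elovl2* were called in each of the 12 fits without 1 liver.

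Against Soy-20%, the soy diet with no added SAA, Soy-10% showed none of these as called (0 of 7, where 0.866% of all genes differed). *Fads2* was 106 to 175 (median 127) on Soy-20%, and the log2 fold change on Soy-10% was −0.29 (95% confidence interval −0.58 to −0.01, edgeR adjusted p = 0.40). *Fads1* was 3043 to 5057 (median 3504) and its log2 fold change was −0.25 (interval −0.46 to −0.04, adjusted p = 0.31). *Elovl2* (−0.27, interval −0.47 to −0.06) and *Elovl5* (−0.36, interval −0.69 to −0.04) had values of similar size. These 4 genes had an unadjusted p under 0.05, as did 12.3% of all genes tested.

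Adding SAA to Soy-20% isolates methionine and cysteine at constant soy protein. This comparison shares its controls with the one against Soy-20% and its supplemented livers with the soy restriction above. *Fads2* had a log2 change of 1.10 ± 0.21 at an edgeR adjusted p of 0.055, with 5 of 6 supplemented livers above all Soy-20% livers, and *Fads1* had 0.63 (SE 0.16, edgeR adjusted p = 0.066), with 4 of 6. *Elovl2* had 0.39 (0.12, adjusted p = 0.090), *Elovl1* 0.24 (0.11, 0.20), *Elovl5* 0.31 (0.21, 0.39), *Scd2* −0.34 (0.21, 0.33) and *Elovl3* −0.64 (0.25, 0.14). No member passed, and 1 of 11932 genes did (0.00838%). With an unadjusted p under 0.05 were 5 of the 7, and 24.2% of all genes.

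The supplementation result depended on the tool. DESeq2 called *Fads2* (adjusted p = 0.00020), *Fads1* (0.0094) and *Elovl2* (0.037) as higher with added SAA, 3 of 7 genes, where 7.32% of all genes were called. Without Soy-20% + SAA liver 1 or liver 2, edgeR called *Fads1* and *Fads2*, with adjusted p of 0.0078 to 0.027. Without libraries 3 to 6, the log2 change was 0.59 for *Fads2* (unadjusted p = 0.0061, edgeR adjusted p = 0.64), 0.33 for *Fads1* (edgeR adjusted p = 0.76) and 0.50 for *Elovl2* (0.64), and edgeR called 0 genes in the whole table.

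**Figure D2:**
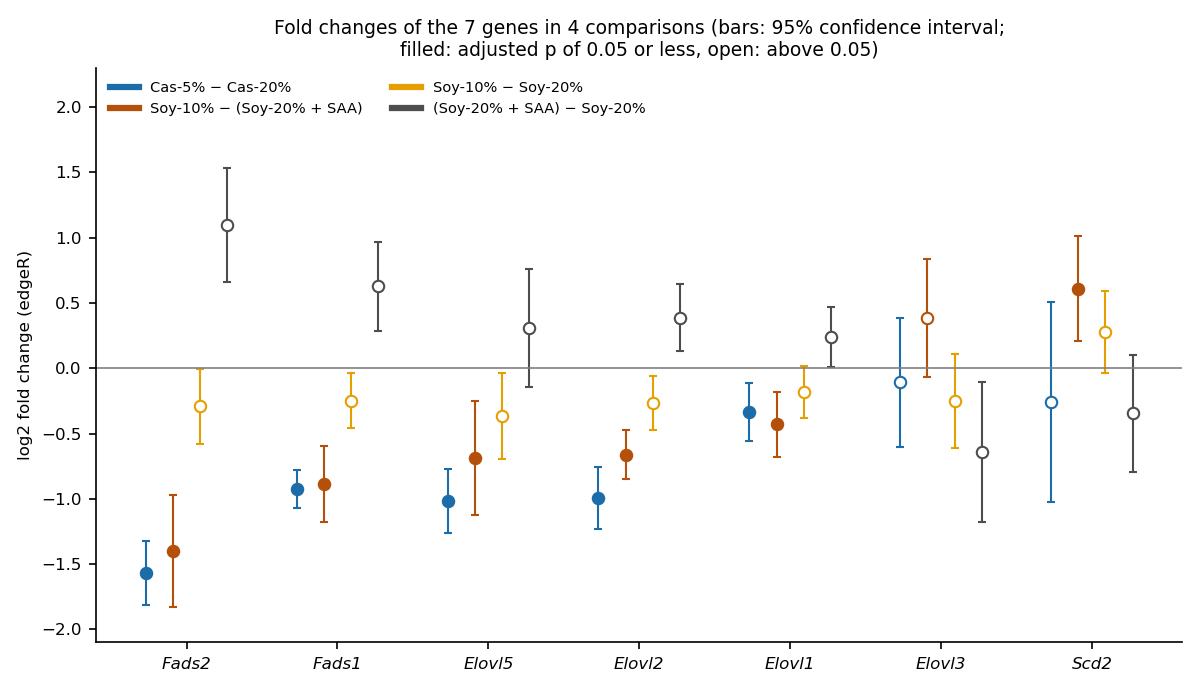
Log2 fold changes (vertical axis) of the 7 genes (horizontal axis) in 4 comparisons, with 95% confidence intervals as bars. Filled points passed an adjusted p of 0.05 and open points did not. Blue and dark orange points of *Fads2* (−1.57 and −1.40) lie lowest, and its grey point (1.10) lies highest.

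At matched SAA, none of the 7 genes passed between the casein and soy controls (0 of 7 with edgeR and with DESeq2, where 2.43% of all genes were called by edgeR). At an unadjusted p under 0.05 stood 1 of 7, *Scd2* (−0.91, edgeR adjusted p = 0.18), and 26.2% of all genes. Soy-20% + SAA minus Cas-20% was 0.02 for *Fads1* (95% confidence interval −0.27 to 0.32), 0.19 for *Fads2* (−0.23 to 0.60), −0.11 for *Elovl2* (−0.36 to 0.14), 0.03 for *Elovl5* (−0.39 to 0.45) and 0.11 for *Elovl1* (−0.15 to 0.38). Without libraries 3 to 6 these values were −0.28 for *Fads1* and −0.32 for *Fads2*, neither called.

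Without the supplement, soy at 20% was below casein at 20% in *Fads2* (log2 change −0.92, SE 0.13, edgeR adjusted p = 0.0029), *Fads1* (−0.61, 0.11, adjusted p = 0.0067) and *Elovl2* (−0.50, 0.12, adjusted p = 0.042). Both desaturases lay below all casein livers with no overlap, as did 1.16% of all genes. Of the 7 genes, 3 were called, each of them lower, where 2.69% of all genes differed and 1.45% were lower. *Elovl5* (−0.28, 0.15, adjusted p = 0.34) did not pass, and with the GC trend in the model *Elovl2* did not either (−0.47, adjusted p = 0.075).

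The restricted diets were close in methionine (0.13 and 0.15 g per 100 g) and cysteine (0.13 and 0.1 g) and differed in protein. None of the 7 genes was called between them by edgeR (0 of 7, where 10.7% of all genes differed), and 3 of 7 and 25.0% of all genes had an unadjusted p under 0.05. *Fads2* was 0.36 higher on Soy-10% (95% confidence interval 0.11 to 0.60, edgeR adjusted p = 0.057), *Elovl5* 0.37 (0.11 to 0.62, adjusted p = 0.061) and *Elovl2* 0.22 (0.06 to 0.39, adjusted p = 0.082). *Fads1* differed by 0.06 (−0.07 to 0.19). DESeq2 put *Fads2* (adjusted p = 0.049) and *Elovl5* (0.035) past the threshold, where 12.0% of all genes passed. EdgeR called 1 or 2 of the 7 genes when Cas-5% liver 3, 5 or 6 or Soy-10% liver 1 or 2 was left out.

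Soy-20% and Cas-5%, at 0.22 and 0.15 g methionine per 100 g, are both low in methionine. They differ in protein source and amount, in methionine (0.22 and 0.15 g) and in cysteine (0.22 and 0.1 g per 100 g), which cannot be told apart here. Soy-20% livers had higher *Elovl5* (log2 change 0.74, SE 0.14, edgeR adjusted p = 0.0012), *Fads2* (0.65, 0.13, adjusted p = 0.0018), *Elovl2* (0.49, 0.11, adjusted p = 0.0053) and *Fads1* (0.32, 0.10, adjusted p = 0.043) than Cas-5% livers. *Elovl5* and *Fads2* lay above all Cas-5% livers with no overlap, as did 5.79% of all genes. Of the 7 genes, 4 were higher, where 10.1% of all genes were higher and 17.1% differed. The *Fads1* call was lost with the GC trend in the model (0.27, adjusted p = 0.10) and with all 30 libraries in 1 fit (0.32, adjusted p = 0.064).

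Whether casein and soy restriction act to different degrees was tested on the difference of the log2 fold changes. Cas-5% was set against Cas-20% and Soy-10% against Soy-20% + SAA, controls that match each other in SAA. None of the 7 passed (0 of 7 with edgeR and with DESeq2, where 8.69% of all genes did with edgeR), and *Elovl2* alone of the 7, with 26.0% of all genes, had an unadjusted p under 0.05. Casein minus soy was −0.04 for *Fads1* (95% confidence interval −0.36 to 0.28), −0.18 for *Fads2* (−0.68 to 0.32), −0.34 for *Elovl2* (−0.64 to −0.04, edgeR adjusted p = 0.14), −0.34 for *Elovl5* (−0.85 to 0.17) and 0.09 for *Elovl1* (−0.24 to 0.42). *Elovl2* passed without Soy-20% + SAA liver 1 (−0.41, adjusted p = 0.045). The differences of both desaturases were larger without libraries 3 to 6, at −0.35 for *Fads1* (edgeR adjusted p = 0.13) and −0.69 for *Fads2* (0.079), while *Elovl1* was at −0.16 (0.72). When Soy-20% replaced Soy-20% + SAA, casein minus soy passed for *Fads2* (−1.28, edgeR adjusted p = 7.4e-05), *Fads1* (−0.68, 0.0012) and *Elovl2* (−0.73, 0.0036), 3 of 7 genes, where 5.99% of all genes passed. These controls are not matched in SAA. Methionine goes from 0.57 to 0.15 g per 100 g for casein, and from 0.22 to 0.13 g for soy. Protein source and the size of the methionine step cannot be told apart there.

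Since library size cancels in a ratio of 2 genes from the same liver, the ratio shows whether partners moved by unequal amounts. The log2 ratio of *Fads2* to *Fads1* was −4.51 ± 0.18 on Cas-20%, −5.16 ± 0.10 on Cas-5%, −4.38 ± 0.15 on Soy-20% + SAA, −4.81 ± 0.19 on Soy-20% and −4.86 ± 0.17 on Soy-10% (SD, n = 6). It was lower by 0.64 on Cas-5% than on Cas-20% (standard error 0.08) and lower by 0.48 on Soy-10% than on Soy-20% + SAA (0.09), with no overlap in either case. Both had an exact two-sided permutation p of 0.0022, the smallest that 6 against 6 allows, and 0.013 after adjustment over 12 tests. Added SAA raised the ratio by 0.43 (0.10, exact permutation p = 0.0065, adjusted 0.026). In these 3 comparisons *Fads2* changed by more than *Fads1*. The other 3 did not pass, with −0.29 for Soy-20% against Cas-20% (exact permutation p = 0.026, adjusted 0.078), 0.14 for Soy-20% + SAA against Cas-20% (0.18, adjusted 0.44) and −0.05 for Soy-10% against Soy-20% (0.63, adjusted 0.79).

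Without libraries 3 to 6, the ratio on Soy-10% was lower by 0.31 (exact permutation p = 0.071, the smallest that 2 against 6 livers allow) and the rise with SAA was 0.26 (exact permutation p = 0.21). The log2 ratio of *Elovl5* to *Elovl2* stayed between 0.82 and 1.04 on average over the 5 diets. Its 6 differences ran from −0.12 to 0.20, with exact permutation p from 0.28 to 0.95.

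**Figure D3:**
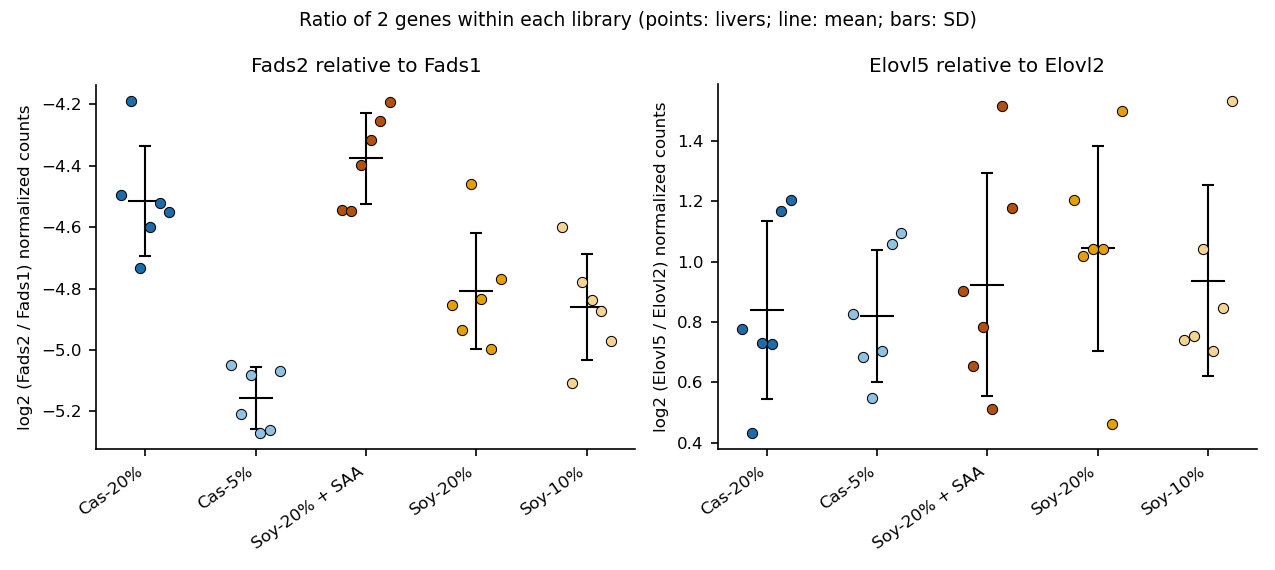
Log2 ratio of normalized counts within each library (vertical axes) by diet, for *Fads2* over *Fads1* (left) and *Elovl5* over *Elovl2* (right). Points are livers, lines are means and bars are 1 SD. The left panel drops from −4.51 to −5.16 between Cas-20% and Cas-5% with no overlap, and the right panel shows overlapping diets.

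The genes were also compared between mice on the same diet, as deviations of log2 CPM from the mean of the diet. *Fads1* and *Fads2* deviated together (Pearson r = 0.855, Spearman rho = 0.786, permutation within diets p = 1e-05 for both, the smallest that 100000 draws can give, adjusted over 21 pairs 0.00021). Leaving out the 2 livers farthest from the median of *Fads1* gave r = 0.804, and leaving out the Soy-20% + SAA diet gave r = 0.719 over 24 livers. *Fads1* and *Elovl5* also deviated together (r = 0.689, rho = 0.711, permutation p = 0.00060 and 0.00016, adjusted 0.0063 and 0.0017, r = 0.696 without 2 livers and 0.614 over 24).

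*Fads1* and *Elovl1* had r = 0.535 (permutation p = 0.0054, adjusted 0.038) and rho = 0.503 (adjusted 0.054), and over 24 livers r = 0.398 (adjusted 0.25). *Elovl2* and *Elovl5* passed by rank only (rho = 0.544, permutation p = 0.0062, adjusted 0.043, against r = 0.456, adjusted 0.11), and over 24 livers rho was 0.380 (adjusted 0.20). *Elovl3* ran against *Fads1* by r = −0.413 (permutation p = 0.065, adjusted 0.14), and over the 24 livers outside Soy-20% + SAA r was −0.03. In that diet, livers 5 and 6 had the highest *Fads1* and the lowest *Elovl3* (1084 and 1349).

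**Figure D4:**
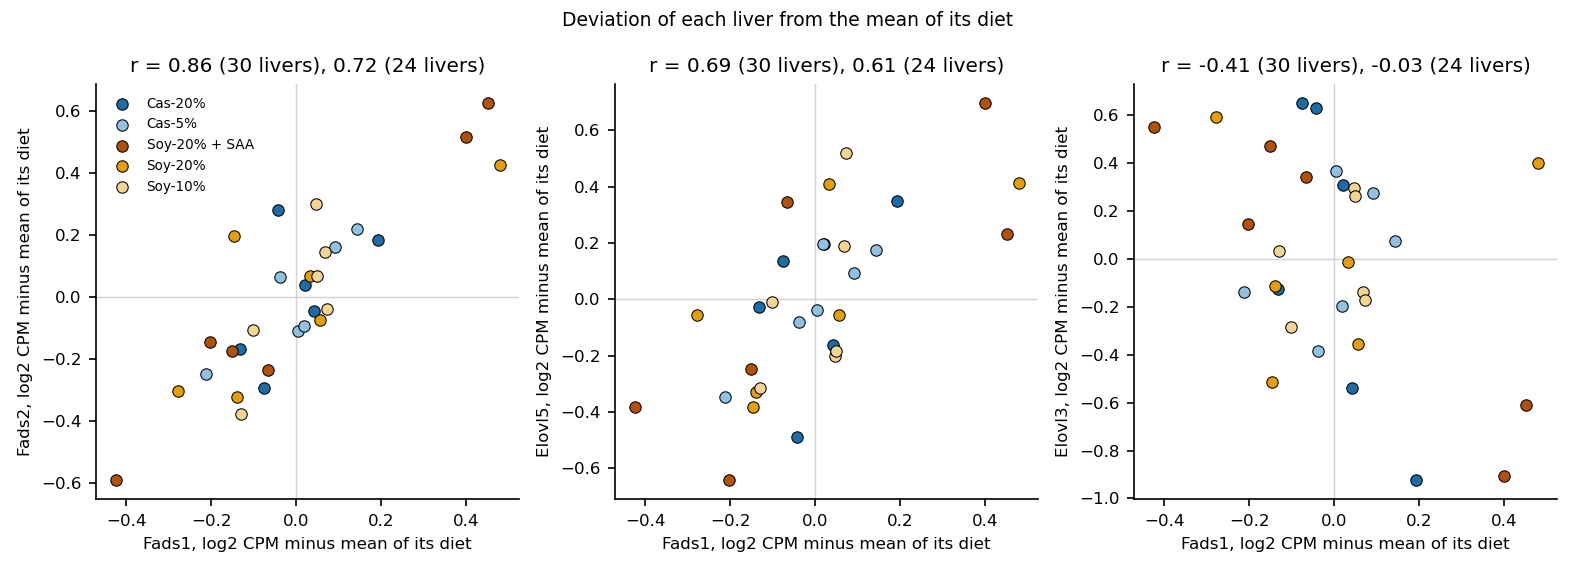
Deviation of each liver from the mean of its diet in log2 CPM, with *Fads1* on the horizontal axis and *Fads2*, *Elovl5* or *Elovl3* on the vertical axis. Points are 30 livers coloured by diet. *Fads2* and *Elovl5* rise with *Fads1*, and the slope of *Elovl3* rests on the Soy-20% + SAA livers.

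Over all 30 livers, diets included, the genes most like each member were listed by Spearman's rho of log2 CPM among 11992 genes. These livers share their diet groups, so the values are descriptions. *Fads2* was closest to *Aldh1b1* (0.921), *Aldh4a1* (0.919, a proline breakdown enzyme) and *Fads1* (0.910), and *Fads1* was closest to *Fads2* (0.910), *Fbxl15* (0.876) and *Cenpm* (0.875). *Elovl5* was closest to *Aqp8* (0.941, an aquaporin), *Pgrmc2* (0.923) and *Dntt* (0.922). *Elovl2* was closest to *Cyb5r3* (0.881), *Sesn3* (0.863) and *Slc38a4* (0.859, an amino acid transporter).

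*Elovl1* had other neighbours, among them *Mvd* (0.846, cholesterol synthesis) and *Fasn* (0.803, fatty acid synthase). *Elovl3* was closest to *Blcap* (0.731), *Grk5* (0.709) and *Arntl* (0.704, a core clock factor), and *Scd2* to *Igf1r* (0.730), *Itga6* (0.718) and *Vasn* (0.715). Among the members, *Elovl2* ranked 9 and *Elovl5* ranked 41 of 11992 in likeness to *Fads1*, while rho with *Fads1* was −0.314 for *Scd2* and −0.249 for *Elovl3*. Over the 24 livers outside Soy-20% + SAA these were −0.167 and 0.016, and rho of the closest genes named above was 0.611 to 0.930.

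Genes around the route were read from 12 lists with 98 genes, of which 83 were in the table. Every list count below stands beside the shares over all genes tested. On Cas-5%, 13.3% were lower and 24.9% differed. On Soy-10% against Soy-20% + SAA, 8.47% were lower, 8.51% were higher and 17.0% differed. The elongation cycle needs further enzymes after the ELOVL condensation. Of 6 such partners, 2 were lower on Cas-5%, *Tecr* (enoyl reductase, log2 change −0.43, edgeR adjusted p = 0.00081) and *Hsd17b12* (ketoacyl reductase, −0.22, 0.036), and none was higher. On Soy-10%, 1 was higher and none lower, with *Hacd2*, a dehydratase, at 1.87 (edgeR adjusted p = 0.019) against Soy-20% + SAA, which became 0.69 (0.0093) without libraries 3 to 6. The list's median was 0.11 for casein and −0.04 for soy, beside 0.02 and −0.01 over all genes tested. The soy median became 0.055 without libraries 3 to 6.

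Desaturases take electrons through cytochrome b5 and its reductase. *Cyb5r3*, the main microsomal reductase, was lower on Cas-5% (2465 ± 313 against 4962 ± 636, edgeR adjusted p = 1.7e-06) and on Soy-10% (3184 ± 319 against 5096 ± 915, edgeR adjusted p = 0.0015), with no overlap in either. Without libraries 3 to 6 the log2 change on Soy-10% was −0.49 (edgeR adjusted p = 0.033). Of the 4 genes of this list in the table, 2 were lower and 1 higher on Cas-5%, the others being *Cyb5b* (−0.20, adjusted p = 0.049) and *Cyb5r1* (0.81, 0.0021). Among the other desaturases, 2 of 4 were lower on Cas-5%, *Scd1* (−2.13, edgeR adjusted p = 4.8e-07) and *Fads6* (−0.44, 0.00033). On Soy-10%, *Scd1* alone of 3 tested was lower (−1.28, 0.0092), and was also lower against Soy-20% (−0.93, 0.012). The *Scd1* call against Soy-20% + SAA was lost without libraries 3 to 6, where *Scd1* was still below the control (unadjusted p = 0.0018, edgeR adjusted p = 0.064).

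Of the other elongases only *Elovl6*, which lengthens palmitate, was in the table. It was lower on Soy-10% (734 ± 162 against 1968 ± 895, log2 change −1.43, edgeR adjusted p = 0.0032), and had −0.68 on Cas-5% (adjusted p = 0.059). Malonyl-CoA is the carbon donor of every elongation. Of 4 genes for its supply and removal, 2 were lower on Cas-5%, *Acacb* (−1.86, edgeR adjusted p = 0.00012) and *Acly* (−1.45, 0.0012), and 3 on Soy-10%, *Acaca* (−0.85, 0.012), *Acacb* (−1.19, 0.013) and *Acly* (−0.89, 0.035). When libraries 3 to 6 were left out, *Acacb* (−0.99, edgeR adjusted p = 0.096), *Acaca* (−0.56, 0.13) and *Acly* (−0.65, 0.27) were below the control by less and not called, and *Elovl6* was called (−0.95, 0.036).

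Acyl-CoA synthetases prime fatty acids for the route. Of 7 tested, 3 were lower on Cas-5%, among them *Acsl5* (log2 change −0.69, edgeR adjusted p = 0.00036) and *Acsl4* (−0.48, 0.011), which prefers arachidonic acid, and *Slc27a5* (−0.44, 7.7e-05), and 2 were lower on Soy-10%, *Slc27a5* (−0.22, 0.025) and *Acsl3* (−0.49, 0.026). Peroxisomes shorten the last intermediate to docosahexaenoic acid. Of 10 genes of that step, 3 were lower and none higher on Cas-5%, among them *Scp2* (−0.32, edgeR adjusted p = 0.0021). On Soy-10%, 2 were higher, *Hsd17b4* (0.21, 0.034) and *Ehhadh* (1.66, 0.035), and 2 were lower, with a list median of −0.16. Of 5 tested acyltransferases that place fatty acyl chains, polyunsaturated or not, in phospholipid, *Agpat2* was lower on Cas-5% (−0.49, edgeR adjusted p = 0.00039) and *Lpcat3* on Soy-10% (−0.26, 0.025). None of the 5 named calls on Soy-10% held without libraries 3 to 6, with edgeR adjusted p from 0.25 for *Hsd17b4* (0.20) to 0.38 for *Slc27a5* (−0.14). No gene of the peroxisomal list was called there, and the median of that list became 0.036. *Acsl4* gained a call without libraries 3 to 6 (−0.43, edgeR adjusted p = 0.024, against −0.15 and 0.46 with these libraries).

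Among 10 regulators, 5 were lower on Cas-5% and none higher, beside 13.3% of all genes lower. *Srebf1*, which encodes SREBP-1, was 395 ± 54.7 against 1521 ± 442 (log2 change −1.93, edgeR adjusted p = 3.5e-07), *Insig2* fell by 0.84 (1.7e-06) and *Scap*, the SREBP escort, by 0.44 (0.00058). *Insig1* (−1.35, 0.0016) and *Nr1h3*, which encodes LXRα (−0.28, 0.0040), were the other 2. On Soy-10%, *Srebf1* was 456 ± 71.5 against 372 ± 186 (0.29, edgeR adjusted p = 0.47), which turned to −0.39 (0.17) without libraries 3 to 6. The difference of its effects was −2.23 (adjusted p = 0.00030), or −1.55 (0.0031) without libraries 3 to 6. On Soy-10%, 3 regulators were lower, *Ppara* (−0.52, edgeR adjusted p = 0.0073), *Mlxipl* (−0.39, 0.0092) and *Insig1* (−0.60, 0.034), and *Nr1h2*, which encodes LXRβ, was higher (0.43, 0.027). None of these 4 was called without libraries 3 to 6, with *Insig1* at −0.47 (edgeR adjusted p = 0.31), *Ppara* at −0.37 (0.19), *Mlxipl* at −0.24 (0.22) and *Nr1h2* at 0.16 (0.59).

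*Elovl3* is known for its daily rhythm and its higher level in male liver, so clock and sex-biased genes were read beside it. Of 16 clock genes tested, 9 were lower and 1 higher on Cas-5%, where 24.9% of all genes differed, including *Bhlhe41* (log2 change −3.36, edgeR adjusted p = 4.4e-06), *Per2* (−1.53, 7.4e-06) and *Nr1d1* (−0.56, 0.00012), while *Elovl3* was at −0.11. *Clock* was the higher one (0.38, 0.00071). On Soy-10%, *Tef* (−0.83, edgeR adjusted p = 0.021), *Bhlhe41* (−1.08, 0.024), *Cry2* (−0.54, 0.028) and *Per2* (−0.57, 0.0465) were lower and *Hlf* (0.37, 0.029) and *Clock* (0.44, 0.047) higher. None of these 6 was called without libraries 3 to 6, where *Per2* (−0.59, edgeR adjusted p = 0.27) and *Cry2* (−0.52, 0.15) were about as low, and *Bhlhe41* (−0.77, 0.30), *Tef* (−0.15, 0.66), *Clock* (0.07, 0.78) and *Hlf* (0.19, 0.50) were nearer to 0. Of 11 male-biased genes, 4 were lower on Cas-5%, where 13.3% of all genes were. The median log2 change of the 11 was 0.04, beside 0.02 over all genes tested. The 4 lower genes were *Cyp4a12b* (−3.40, edgeR adjusted p = 8.35e-07), *Cyp4a12a* (−1.06, 9.3e-05), *Selenbp2* (−2.05, 0.0062) and *Nudt7* (−0.52, 0.0063). *Cyp4a12a* and *Cyp4a12b* are fatty acid hydroxylases of near-identical sequence whose counts may mix. On Soy-10% only *Cyp4a12b* was lower (−2.07, edgeR adjusted p = 0.00013), also without libraries 3 to 6 (−2.11, 0.0020). The female-biased *Cyp2a4*, which had few counts, was higher on Cas-5% (39.0 ± 33.3 against 4.07 ± 5.03, 3.26, edgeR adjusted p = 0.0029). Of the 9 genes of its list, it was the 1 tested there, so the list as a whole was not read.

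**Figure D5:**
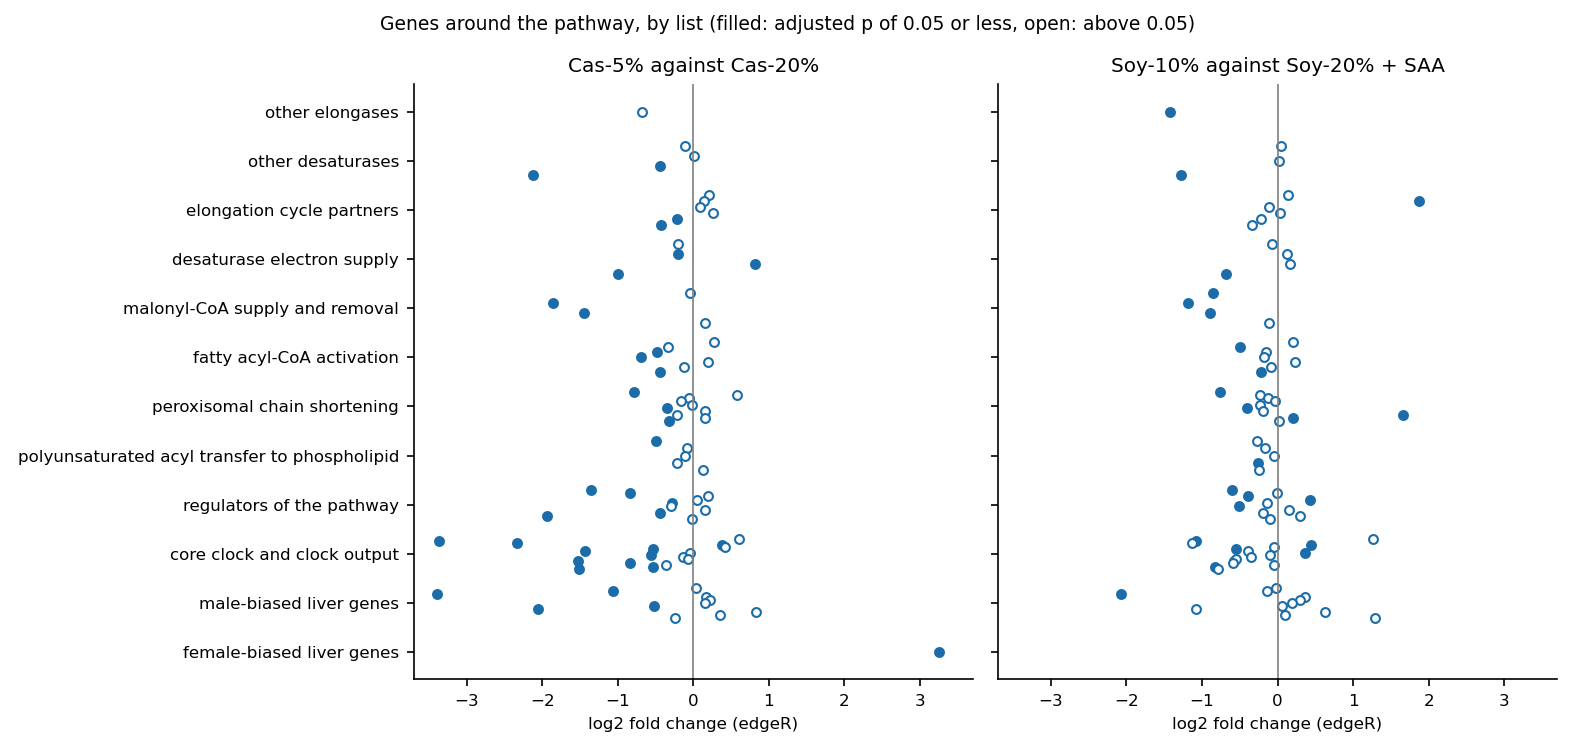
Log2 fold changes (horizontal axes) of the tested genes of 12 lists (rows) on Cas-5% against Cas-20% (left) and Soy-10% against Soy-20% + SAA (right). Each point is 1 gene, filled where the adjusted p is 0.05 or less. *Scd1* (−2.13 and −1.28) lies left of 0 in both panels, and *Srebf1* (−1.93 and 0.29) in the casein panel, with a soy value of −0.39 without libraries 3 to 6 (not plotted).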

How the data were processed

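Liver RNA of 30 mice on 5 diets was analysed. The deposited raw counts per gene were made by the authors from QuantSeq 3′ reads with the Lexogen pipeline on the Bluebee platform, and the counting settings are not given in the sources used here. The deposited normalized signal was made by the authors by dividing the counts by DESeq2 size factors (R 4.0.3 and DESeq2 1.30 are listed in the submitters' processing notes). Library totals were 7694015 to 14565542.

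Counts were tested on the whole table with edgeR 4.0.16 (R 4.3.3): filterByExpr, TMM scaling, two-sided quasi-likelihood F test, Benjamini-Hochberg adjustment over all genes tested, threshold 0.05. Only the diets compared entered a fit. Alternatives were DESeq2 1.42.0, other scaling and filters, a GC term, a replicate block, all libraries in 1 fit and left-out libraries. Ratios were compared by exact permutation (scipy 1.17.1). The ratio tests, their alternatives and the list counts without libraries 3 to 6 were added after the data were seen. The edgeR and DESeq2 fits were tested on counts simulated from the casein libraries, and the other steps were not tested in this way.

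All 7 genes are named, with up to 3 genes per list by smallest adjusted p in casein or soy restriction, each gene behind a count of 5 or fewer, and the 3 genes most like each member among those with a mean normalized count of at least 10. Some genes that this rule takes are not reported here. The members and lists were chosen with earlier results of these data known. Each library is 1 mouse, and p-values measure the spread between these mice.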

Additional observations from a re-analysis of the deposited data

Results flagged for a closer look

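Of 35 sets of 6 livers (7 genes on 5 diets), 3 held a liver whose gap to its nearest neighbour was over 0.625 of the whole range, a rule that chance alone meets in about 1 of 20 sets. *Scd2* reached 112 normalized counts in Cas-20% liver 2, against 49.1 in the next. *Fads1* reached 5057 in Soy-20% liver 1, against 3702 in the next. *Elovl1* was lowest, at 221, in Cas-5% liver 1, against 276 in the next. The causes were not tested.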

How the results depend on the processing

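Of 23 called results of the 7 genes over the 10 comparisons, 167 alternatives (another tool, scaling, filter, sample set, a GC term or a block) kept the direction and the call in 151, lost the call in 16 and reversed none. Of 358 alternatives of results that were not called, 16 gained a call and 19 changed sign. Fits without 1 liver are not in these counts. Over 12 such fits, *Elovl1* lost its call in 3 in casein restriction. In soy restriction against Soy-20% + SAA, *Elovl1* lost it in 4 of 12, *Elovl5* in 7 and *Scd2* in 8. The causes were not tested.

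The number of the 7 genes called was 3 in place of 6 for soy restriction without Soy-20% + SAA libraries 3 to 6, and 3 to 6 with 1 liver left out. For SAA supplementation it was 3 in place of 0 with DESeq2 and with all 30 libraries in 1 fit, and 0 to 2 with 1 liver left out. For the casein and SAA-matched soy controls it was 1 in place of 0 with all 30 libraries (*Scd2*, −0.91, edgeR adjusted p = 0.034). For the restricted diets it was 2 with DESeq2 and 0 to 2 with 1 liver left out. For casein minus soy it was 3 with Soy-20%, which is not matched to Cas-20% in SAA, as control and 0 to 1 with 1 liver left out.

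The following changed sign without being called in either form (log2 scale). With the GC trend of each library in the model these were *Elovl3* (0.23) and *Scd2* (0.36) in casein restriction, *Elovl1* in supplementation (−0.012), *Fads1* (−0.26), *Fads2* (−0.30), *Elovl1* (−0.14) and *Elovl5* (−0.053) between the matched controls, *Scd2* between Soy-20% and Cas-20% (0.047) and *Elovl1* in casein minus soy (−0.15). Without libraries 3 to 6 these were *Elovl1* in supplementation (−0.0033), *Fads1* (−0.28), *Fads2* (−0.32), *Elovl1* (−0.13), *Elovl5* (−0.042) and the ratios *Fads2* to *Fads1* (−0.032) and *Elovl5* to *Elovl2* (−0.062) between the matched controls, and *Elovl1* in casein minus soy (−0.16). With Soy-20% as control, casein minus soy was −0.16 for *Elovl1* and 0.14 for *Elovl3*.

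With 1 liver left out, casein restriction ran from −0.26 to 0.043 for *Elovl3* and from −0.40 to 0.32 for *Scd2*. Matched controls ran from −0.083 to 0.10 for *Fads1* and from −0.12 to 0.15 for *Elovl5*. The restricted diets ran from −0.054 to 0.052 for *Elovl1*, from −0.019 to 0.13 for *Elovl3* and from −0.092 to 0.0043 for *Scd2*, and casein minus soy from −0.15 to 0.038 for *Fads1*. The log2 ratio of *Fads2* to *Fads1* ran from −0.10 to 0.018 for Soy-10% against Soy-20%. That of *Elovl5* to *Elovl2* ran from −0.10 to 0.052 in casein restriction, from −0.11 to 0.13 in soy restriction and from −0.034 to 0.17 between the matched controls.

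Replicate numbers did not pair the livers: over 60 pairs of libraries with the same number in different diets, the correlation of deviations ran from −0.24 to 0.34, and 17 exceeded 0.1. With the replicate number as a block, the restricted diets had 3 called genes in place of 0 (*Fads2*, *Elovl2* and *Elovl5*). *Elovl1* in casein restriction (edgeR adjusted p = 0.068), *Scd2* in soy restriction (0.051), *Elovl2* between Soy-20% and Cas-20% (0.076) and *Fads1* between Soy-20% and Cas-5% (0.062) lost their calls, and between the matched controls *Fads1* was −0.011 and *Elovl5* −0.020.

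Over the whole table, soy restriction called 2035 genes, 389 with the GC term, 317 without libraries 3 to 6 and 3077 with all 30 libraries in 1 fit. Supplementation called 1 gene, 873 with DESeq2 and 1793 with all 30 libraries. The matched controls gave 291, 1130 with DESeq2, 2331 with all 30 libraries, 141 with the block, 5 with the GC term and 3 without libraries 3 to 6. Soy-10% against Soy-20% gave 103, 216 with DESeq2 and 62 with all 30 libraries, and Soy-20% against Cas-20% gave 319, 608 with DESeq2 and 190 with the block. Casein minus soy gave 1089, 564 with the GC term and 296 without libraries 3 to 6, and the 5 diets gave 5450, 3550 and 3433. *Scd2* had the lowest counts of the 7 genes (13.2 to 112 normalized counts), and what depth limits was not compared between genes.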
